A study of Mus musculus with 16 samples.

Results

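The genes described here are 9 genes of T cell receptor signalling, Cd3d, Cd3e, Cd3g, Cd4, Lck, Zap70, Lat, Cd28 and Cd27, followed over lung samples of mice with and without ovalbumin challenge. They were taken by name, 8 from the array's annotation and Lck from the symbol column of another table of the series, and not by a threshold on their values. The choice was made with earlier results of these data known, so shares of all features given below are a reference and no test of the list. All 9 had a probe above background on enough arrays to be tested, so they are 9 of the 11962 features (11014 with a gene symbol) over which each test ran. The series measured total RNA of lung from 16 female C57BL/6N mice of 17 weeks, 1 mouse on each Illumina BeadChip array. They fall into 4 groups of 4 by genotype and treatment, wild type or mutant, each either untreated or challenged. Mutant means a knockout line of Cox4-2, which encodes a form of a subunit of the mitochondrial respiratory chain and is named Cox4i2 on the array. Challenged mice had received 10 µg ovalbumin in 2 mg alum into the peritoneum and later breathed an aerosol of 1% ovalbumin 3 times for 30 min, a protocol used to raise an allergic response in the airways. The untreated mice are labelled with no treatment, and whether they were sensitised by the injection is not stated. The labels name no slide, scan or other batch, so none was tested.

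A T cell recognises a peptide held on an MHC molecule through its receptor, whose antigen-binding chains lack signalling tails and work only together with the CD3 gamma, delta and epsilon chains and the zeta chain. The coreceptors CD4 and CD8 bring the kinase Lck to the engaged receptor, Lck phosphorylates the CD3 and zeta tails, and the kinase ZAP-70 docks there and phosphorylates the adaptor LAT, on which the calcium, Ras and protein kinase C branches are assembled. CD28 and CD27 are costimulatory receptors that add a signal from the antigen-presenting cell. In allergic airway disease CD4 T helper cells recognise the inhaled antigen and release the cytokines that draw in eosinophils. In RNA of whole lung, more cells of a type and more RNA per cell cannot be told apart, and this holds for every value below.

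The 3 CD3 genes are neighbours on chromosome 9 in the order Cd3g, Cd3d, Cd3e, with no other protein-coding gene between them in the RefSeq annotation. Their start regions are shown first, together with those of Lck, the member with the largest change, and Lat. Each line gives 250 bases before and 50 after an annotated start, 5′ to 3′ on the gene's strand, from RefSeq on GRCm38.p6. Capitals mark the ETS core AGGAAG and the E-box CAGGTG on either strand (CTTCCT and CACCTG on the other), letters bound by ETS factors and E proteins, which are known regulators of T cell genes.
Cd3g chr9:44980382-44980681, minus strand: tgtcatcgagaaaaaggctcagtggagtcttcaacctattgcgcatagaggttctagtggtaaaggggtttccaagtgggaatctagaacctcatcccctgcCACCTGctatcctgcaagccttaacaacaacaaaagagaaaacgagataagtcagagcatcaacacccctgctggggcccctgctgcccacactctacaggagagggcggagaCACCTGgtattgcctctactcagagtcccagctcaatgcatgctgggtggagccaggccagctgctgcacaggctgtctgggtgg
Cd3d chr9:44981536-44981835, plus strand: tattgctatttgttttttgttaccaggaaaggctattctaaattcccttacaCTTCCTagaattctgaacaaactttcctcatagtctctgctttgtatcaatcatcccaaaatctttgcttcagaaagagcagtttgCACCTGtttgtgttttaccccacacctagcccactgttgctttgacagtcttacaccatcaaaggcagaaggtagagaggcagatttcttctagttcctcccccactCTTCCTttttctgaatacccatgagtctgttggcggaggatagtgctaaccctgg
Cd3e chr9:45009562-45009861, minus strand: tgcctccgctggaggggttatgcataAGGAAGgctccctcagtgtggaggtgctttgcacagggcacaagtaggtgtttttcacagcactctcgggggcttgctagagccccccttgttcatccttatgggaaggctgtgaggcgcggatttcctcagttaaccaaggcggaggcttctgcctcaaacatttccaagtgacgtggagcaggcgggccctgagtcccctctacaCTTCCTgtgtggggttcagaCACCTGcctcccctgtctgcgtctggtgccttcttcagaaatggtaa
Lck chr4:129573592-129573891, minus strand: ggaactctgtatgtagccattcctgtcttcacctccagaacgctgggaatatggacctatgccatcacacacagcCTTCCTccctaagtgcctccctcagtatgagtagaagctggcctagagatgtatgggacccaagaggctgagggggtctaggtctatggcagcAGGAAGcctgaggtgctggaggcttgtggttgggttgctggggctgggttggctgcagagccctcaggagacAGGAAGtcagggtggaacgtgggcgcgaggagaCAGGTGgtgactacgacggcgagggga
Lck chr4:129558323-129558622, minus strand: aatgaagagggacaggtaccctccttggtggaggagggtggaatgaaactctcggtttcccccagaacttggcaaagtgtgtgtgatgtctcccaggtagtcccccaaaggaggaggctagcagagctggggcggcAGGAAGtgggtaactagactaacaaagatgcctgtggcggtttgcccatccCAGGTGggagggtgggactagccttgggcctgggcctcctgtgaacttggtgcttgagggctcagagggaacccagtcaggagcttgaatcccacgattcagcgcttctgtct
Lat chr7:126369519-126369818, minus strand: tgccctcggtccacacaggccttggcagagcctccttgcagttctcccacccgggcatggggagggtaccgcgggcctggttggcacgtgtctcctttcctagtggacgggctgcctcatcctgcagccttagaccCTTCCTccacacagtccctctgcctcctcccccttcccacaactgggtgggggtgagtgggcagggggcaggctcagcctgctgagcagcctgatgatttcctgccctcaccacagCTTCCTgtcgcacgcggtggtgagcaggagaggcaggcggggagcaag
Lck has 2 start regions in this list, as the gene is known to have a distal and a proximal promoter, the distal one used in mature T cells. The Cd3d and Cd3e windows each hold 2 ETS cores and 1 E-box, whereas the Cd3g window holds 2 E-boxes and no ETS core. The upstream Lck window holds 3 ETS cores and 1 E-box, the other Lck window 1 of each, and the Lat window 2 ETS cores and no E-box. Over the 10 windows of the 7 members in the table, which are those printed, 3 of Zap70 and 1 of Cd27 (Cd28 and Cd4 are not in it), the ETS core was present in 7, against 35.4% of all 32851 windows of the same length. The E-box was present in 7 of the 10 windows, against 20.2% of all windows. The RUNX letters TGTGGT, searched on both strands, were present in 3 of the 10 against 16.8% of all, and the TATA box letters TATAAA in 0 of the 10 against 13.6% of all. The Cd27 window held none of the 4 motifs. These matches describe letters only, and nothing is drawn from them about binding or about which genes changed with challenge.

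As checks on the samples, the lung markers were bright on every array, with an intensity of 19829 to 32045 for Sftpc, the surfactant protein of alveolar type 2 cells, and 38908 to 45524 for Scgb1a1, the secretoglobin of club cells. Cox4i2 had a mean intensity of 283 ± 59.8 (SD, n = 4) in untreated wild type and 137 ± 55.9 in untreated mutant, and of 248 ± 55.6 and 144 ± 66.6 after challenge. Its signal was thus lower but still present in the mutant line, where the deleted part is not stated, and over both treatments it differed by -0.79 on the log2 scale (limma adjusted p = 0.0833). Arrays of a group had rank correlations of 0.957 to 0.986. On 3 challenged arrays, replicates 1 and 3 of the wild type and replicate 2 of the mutant, Acta1, the skeletal muscle actin, had an intensity of 7831 to 16798, against at most 148 on the other 13. Markers of squamous epithelium and fat were also high there, so results are given with and without these 3 arrays where that changes a call. Squamous markers were raised on the other challenged arrays too. Their mean log2 value, relative to untreated wild type, was 0.19 to 1.15 on these, against -0.09 to 0.12 on untreated arrays. Among untreated mice, replicate 3 of the wild type stood above its group for several members and is named where it matters.

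Challenge was accompanied by higher values of 5 of the 9 genes. In the wild type these were Cd3d, Cd3e, Cd27, Lat and Lck, at 1.27-fold to 1.63-fold, and in the mutant Cd3d, Cd27, Lat and Lck, at 1.42-fold to 2.17-fold. Cd3g, Zap70 as tested, Cd28 and Cd4 passed in neither genotype. No member passed in the downward direction. By limma at an adjusted p under 0.05 over all features, 5 of 9 passed in the wild type, where 8.19% of all features were called higher, and 4 of 9 in the mutant, where 12.1% were. Averaged over both genotypes the same 5 passed as in the wild type, where 18.1% of all features were called higher. The median log2 change of the 9 genes over both genotypes was 0.33, beside 0.01 over all features. Folds come from log2 values after a background model and an offset, which together raised the intensities by a median of 40.8, so that folds of dim probes are understated. Without the 3 Acta1 arrays 4 of 9 were higher in the wild type and 5 of 9 in the mutant.

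**Figure D1:**
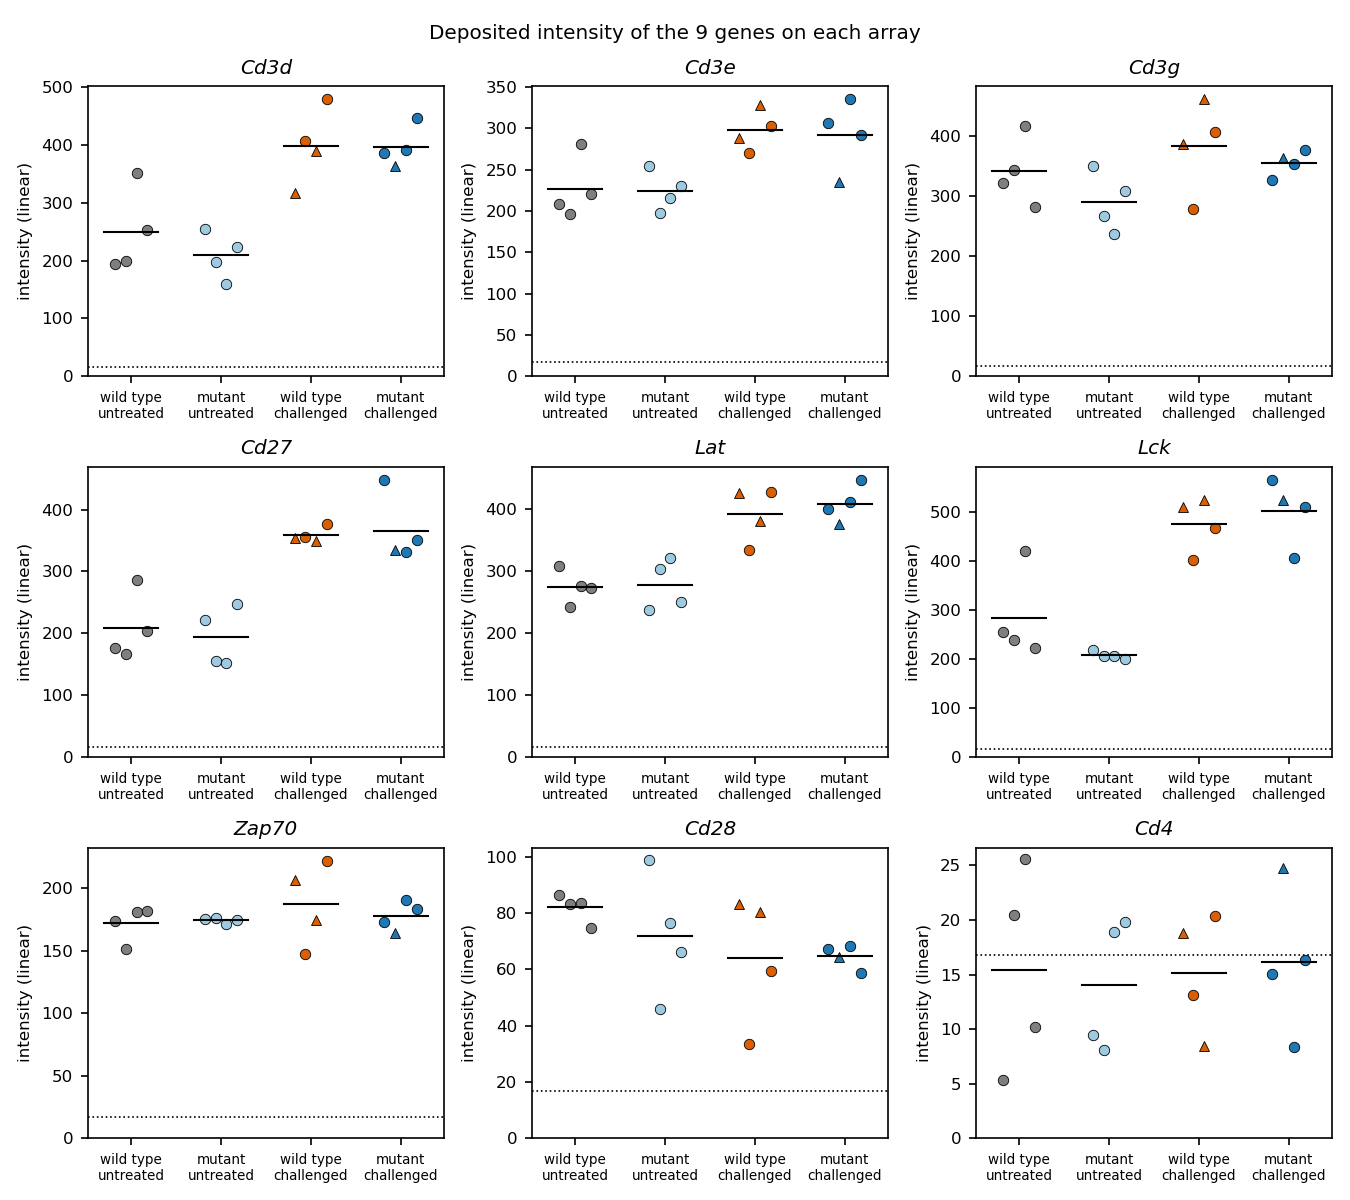
Deposited linear intensity (vertical axis, arbitrary units) of the 9 genes on each of the 16 arrays, 4 per group; horizontal bars are group means, the dotted line is the background limit of 16.8 and triangles mark the 3 challenged arrays with high Acta1. For Cd27 and Lat every challenged array lies above every untreated one, while Zap70 is level, Cd28 is not higher after challenge and Cd4 lies about the background limit.

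Cd3d encodes the delta chain of CD3. Its intensity was 194, 200, 351 and 252 on the untreated wild-type arrays and 255, 198, 160 and 224 on the untreated mutant arrays. After challenge it was 317, 407, 390 and 479 in the wild type and 387, 364, 391 and 447 in the mutant. The mutant groups did not overlap, whereas in the wild type untreated replicate 3 lay above challenged replicate 1. The group means were 209 ± 40.2 (SD, n = 4) in untreated mutant and 249 ± 72.9 in untreated wild type, which overlapped, and 397 ± 35.3 and 398 ± 66.6 in challenged mutant and wild type, which did not differ beyond their spread. The log2 change with challenge was 0.62 (SE 0.16, adjusted p = 0.0140) in the wild type and 0.82 (SE 0.16, adjusted p = 0.00217) in the mutant. An exact permutation test over genotypes and arrays, two-sided, gave p = 0.0008 for challenge over both genotypes. The wild-type call was lost without untreated wild-type replicate 2 (log2 change 0.54, adjusted p = 0.0502, range over all 30 alternatives 0.00171 to 0.0502).

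Cd3e encodes the epsilon chain, which pairs with both the gamma and the delta chain. It measured 209, 197, 281 and 221 in untreated wild type, 255, 198, 215 and 230 in untreated mutant, 288, 270, 328 and 303 in challenged wild type and 306, 235, 335 and 292 in challenged mutant. Challenged arrays were mostly the higher ones, but the groups overlapped in both genotypes through untreated wild-type replicate 3 and challenged mutant replicate 2, the latter 1 of the 3 arrays with high Acta1. Its log2 change lay at the threshold in each genotype, at 0.34 (SE 0.11, adjusted p = 0.0470) in the wild type and 0.32 (SE 0.11, adjusted p = 0.0502) in the mutant, and over both genotypes it was 0.33 (SE 0.08, adjusted p = 0.00439). The call within the wild type was therefore not firm, and it was lost in 19 of 30 alternatives, without the 3 Acta1 arrays among them (0.30, adjusted p = 0.122, range 0.0137 to 0.136). In the mutant, leaving out these arrays instead brought Cd3e past the threshold, with a log2 change of 0.41. The call over both genotypes held in all 29 alternatives that could be run, with an adjusted p of at most 0.0114.

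Cd3g encodes the gamma chain, and of the 3 neighbours it was the one that passed no test of challenge. The intensities were 322, 343, 417 and 282 in untreated wild type, 351, 266, 236 and 308 in untreated mutant, 386, 278, 461 and 406 in challenged wild type and 327, 363, 353 and 377 in challenged mutant. The lowest challenged wild-type array lay below all 4 untreated wild-type ones, and in the mutant the groups overlapped through untreated replicate 1. The log2 change was 0.14 (95% interval -0.15 to 0.44) in the wild type, 0.27 (-0.03 to 0.56) in the mutant and 0.21 (SE 0.10, adjusted p = 0.115) over both. The last passed only when challenged wild-type replicate 2 was left out (0.27, adjusted p = 0.0282, range over 29 alternatives 0.0282 to 0.486). The intervals leave room for a change of the size seen in Cd3e, and the difference between the 3 genes' changes was not tested.

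Cd4, the coreceptor of T helper cells, could not be followed. Its only probe read 5.32, 20.5, 25.6 and 10.2 in untreated wild type, 9.48, 8.09, 18.9 and 19.8 in untreated mutant, 18.8, 13.1, 8.44 and 20.3 in challenged wild type and 15.1, 24.8, 8.36 and 16.3 in challenged mutant. Only 7 of the 16 arrays were above the background limit of 16.8, the upper 95% point of the noise, and no group stood apart. Its log2 change over both genotypes was 0.03 (95% interval -0.16 to 0.22), a value that the nearness to background limits.

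Lck, the Src family kinase that acts first after the receptor is engaged, had the largest change of the 9 genes over both genotypes. On the untreated arrays its intensity was 255, 239, 419 and 223 in the wild type and 218, 206, 206 and 199 in the mutant. On the challenged arrays it was 510, 401, 523 and 466 in the wild type and 563, 522, 405 and 510 in the mutant. The mutant groups did not overlap, and in the wild type untreated replicate 3 lay above challenged replicate 2 alone. The log2 change was 0.70 (SE 0.15, adjusted p = 0.00452) in the wild type, 1.12 (SE 0.15, adjusted p = 0.00024) in the mutant and 0.91 (SE 0.10, adjusted p = 1.57e-05) over both, and the exact permutation p over both was 0.0008. The call in each genotype held in all 30 alternatives. The platform annotation gives this probe no gene.

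Zap70, the kinase that docks on the phosphorylated chains, has 3 probes, and they disagreed. The brightest (ILMN_2513870), which was the one tested, read 174, 152, 181 and 182 in untreated wild type, 175, 176, 172 and 175 in untreated mutant, 206, 148, 175 and 222 in challenged wild type and 173, 165, 191 and 183 in challenged mutant. It was level over all 4 groups, with a log2 change of 0.06 over both genotypes (95% interval -0.09 to 0.20, adjusted p = 0.549). A dimmer probe (ILMN_3005740), above background on all 16 arrays, read 66.0, 58.1, 61.5 and 66.1 in untreated wild type and 45.5, 43.5, 27.7 and 32.9 in untreated mutant. After challenge it read 73.8, 80.5, 68.7 and 71.7 in the wild type and 53.6, 83.7, 74.2 and 68.4 in the mutant. On this probe the untreated mutant arrays were the 4 lowest of all 16, and in the wild type too every challenged array lay above every untreated one. With each of 15869 probes fitted as a feature of its own, its log2 change was 0.14 (adjusted p = 0.349) in the wild type, 0.50 (adjusted p = 0.00229) in the mutant, where 11.0% of all probes were called higher, and 0.32 (adjusted p = 0.00199) over both genotypes, where 16.3% were. In untreated mice it differed between the genotypes by -0.41, mutant minus wild type (SE 0.10, unadjusted p = 0.000602, adjusted p = 0.142 over all probes). The third probe lay between 1.43 and 34.1, above background on 7 arrays, and passed no test. Which transcripts each probe detects was not analysed here, and the cause of the disagreement was not tested.

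**Figure D2:**
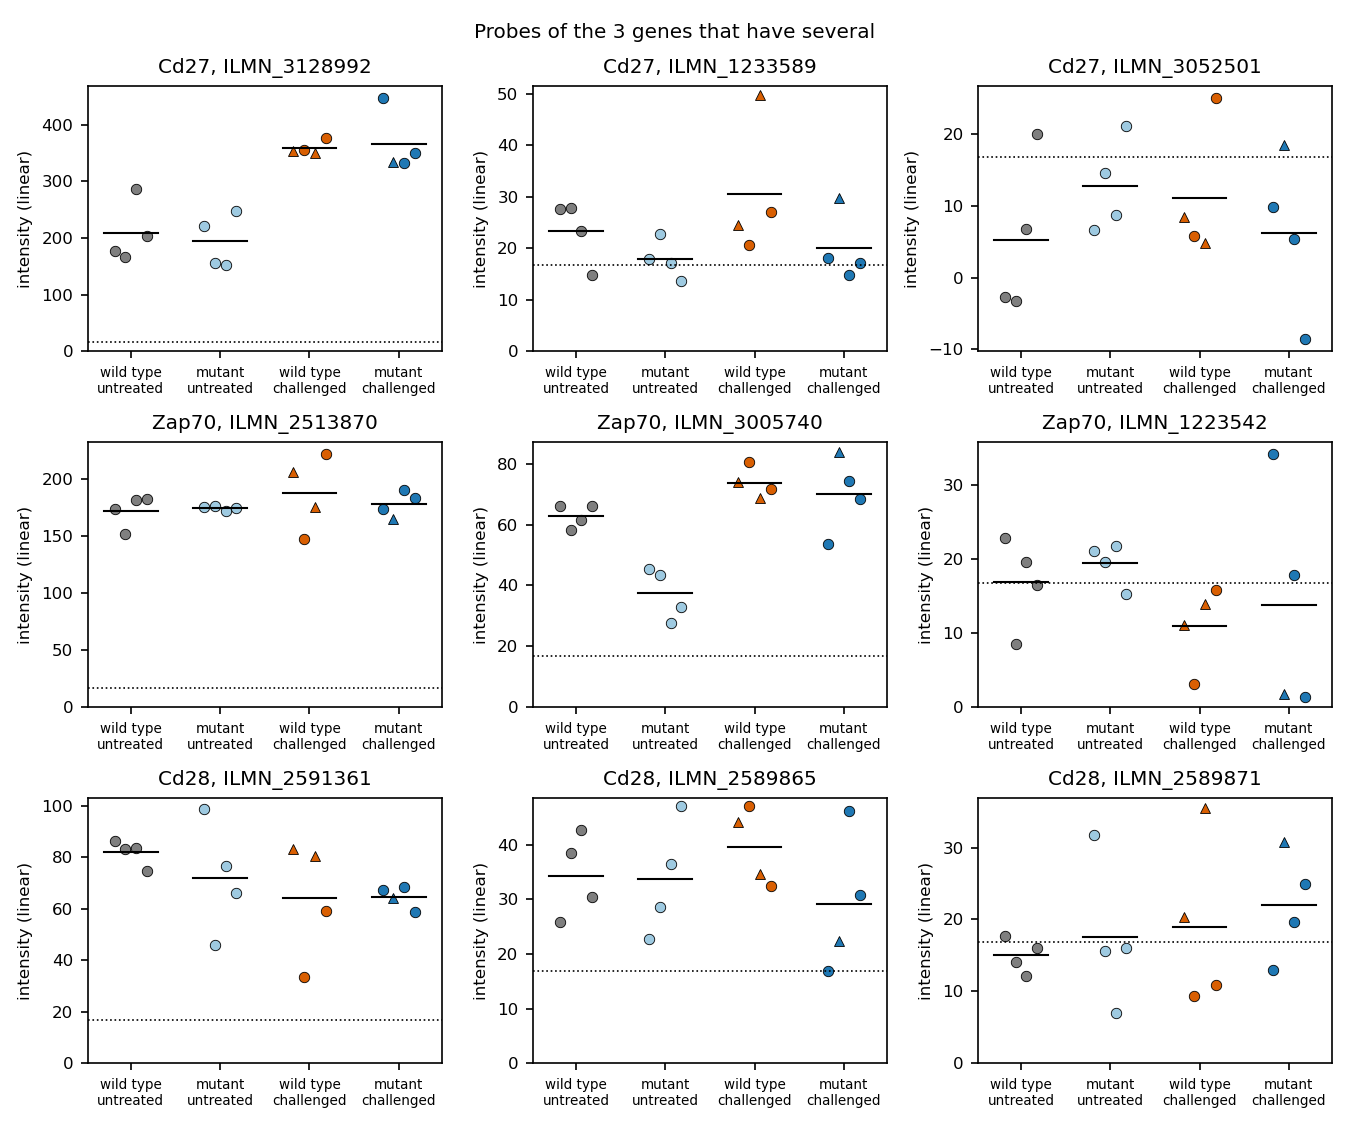
Deposited linear intensity of every probe of Cd27, Zap70 and Cd28 on each array, by group, with group means as bars, the background limit of 16.8 as a dotted line and triangles for the 3 challenged arrays with high Acta1; each panel has its own scale. The tested probe of each gene is in the left column, and only the middle Zap70 probe sets the untreated mutant arrays, at 27.7 to 45.5, below all others.

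Lat encodes the membrane adaptor that ZAP-70 phosphorylates. It measured 308, 242, 276 and 272 in untreated wild type, 237, 303, 321 and 250 in untreated mutant, 426, 333, 380 and 427 in challenged wild type and 400, 375, 412 and 446 in challenged mutant. The lowest of the 8 challenged arrays, at 333, lay above the highest of the 8 untreated ones, at 321. The means were 275 ± 26.9 (SD, n = 4) and 278 ± 40.4 in untreated wild type and mutant, and 391 ± 44.5 and 408 ± 29.5 after challenge. Lat had a log2 change of 0.45 (SE 0.11, adjusted p = 0.00842) in the wild type and 0.50 (SE 0.11, adjusted p = 0.00373) in the mutant. Unlike the CD3 genes it was not raised in untreated wild-type replicate 3. Leaving out that array together with the 3 Acta1 arrays ended the wild-type call (0.41, adjusted p = 0.0598, range over 30 alternatives 0.00509 to 0.0598).

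Of the 2 costimulatory receptors, Cd27 was higher after challenge and Cd28 was not. Cd27, a receptor of the tumour necrosis factor receptor family carried by T cells and some B cells, read 177, 166, 287 and 205 in untreated wild type and 221, 156, 153 and 248 in untreated mutant. After challenge it read 354, 356, 350 and 377 in the wild type and 447, 334, 332 and 350 in the mutant. All 8 challenged arrays lay above all 8 untreated ones. The log2 change was 0.70 (SE 0.15, adjusted p = 0.00496) in the wild type and 0.80 (SE 0.15, adjusted p = 0.00183) in the mutant. Averaging the probe with its 2 others near background, the brighter at 13.7 to 49.7, gave 0.21 in the mutant (adjusted p = 0.139, range over 30 alternatives 0.000461 to 0.139).

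Cd28, the main costimulatory receptor of naive T cells, read 86.2, 83.3, 83.6 and 74.7 in untreated wild type, 98.9, 46.0, 76.5 and 66.1 in untreated mutant, 83.2, 33.6, 80.4 and 59.2 in challenged wild type and 67.2, 64.2, 68.3 and 58.7 in challenged mutant. The challenged arrays overlapped the untreated ones in both genotypes, and none lay above its untreated group. The log2 change was -0.25 (95% interval -0.57 to 0.06) in the wild type and -0.08 (-0.39 to 0.24) in the mutant, neither past the test. Without the 3 Acta1 arrays, 2 of which held the higher challenged wild-type values, it passed as lower in the wild type (-0.51, adjusted p = 0.0395, range over 30 alternatives 0.0395 to 0.882) and over both genotypes (-0.29, adjusted p = 0.0467, range over 29 alternatives 0.0412 to 0.820). Both other Cd28 probes were dim, at 16.8 to 47.0 and 7.04 to 35.5, and passed no test.

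**Figure D3:**
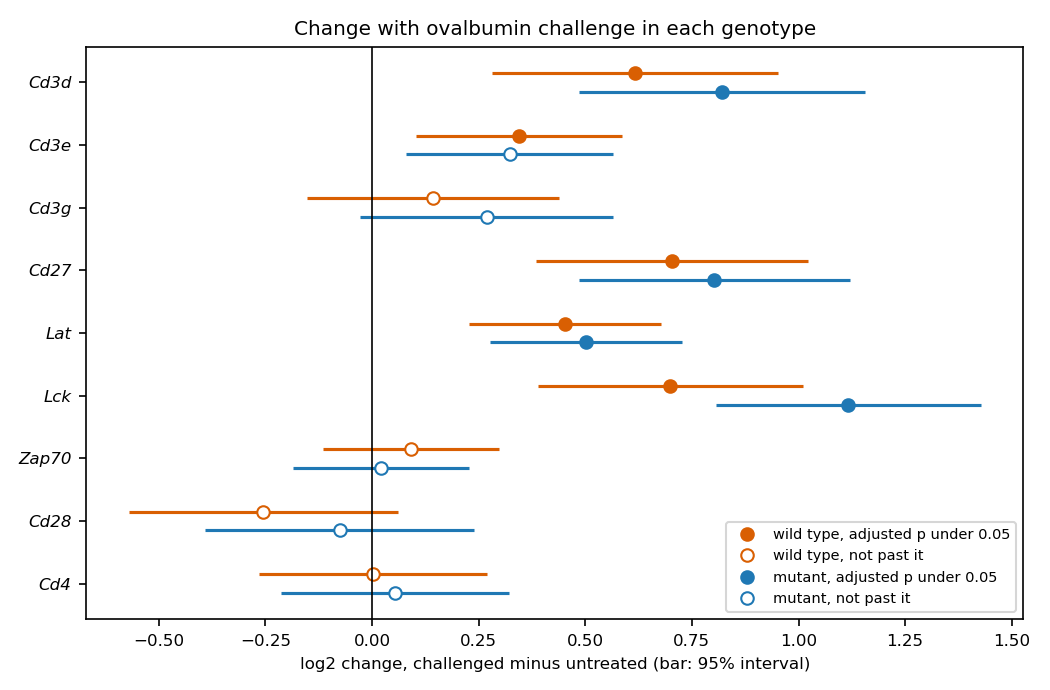
Log2 change with challenge (horizontal axis, challenged minus untreated) of each gene in the wild type and the mutant, with 95% intervals from limma; filled points passed an adjusted p of 0.05. Lck in the mutant, at 1.12, is the largest, and for every gene the 2 intervals overlap.

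Without reference to the shared spread, and counting the tested probe of each gene only, the groups did not overlap, with challenged above untreated, for 2 members in the wild type (Cd27 and Lat), where 8.06% of all features had such groups. In the mutant this held for 4 members (Cd3d, Cd27, Lat and Lck), where 14.8% of all features did. Over both genotypes it held for Cd27 and Lat, where 2.17% of all features did. The exact permutation test of 4 against 4 arrays can give no p below 0.0286, which is what it gave for each tested probe whose groups did not overlap.

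By limma the genotypes differed for none of the 9 genes, on the tested probe or on any other probe. In untreated mice the log2 differences, mutant minus wild type, ran from -0.35 for Lck to 0.02 for Zap70, with 0 of 9 past the threshold and 0.00% of all features called. Among the tested probes Lck was farthest from no difference, at -0.35 (SE 0.15, unadjusted p = 0.0293 and adjusted p = 0.347 by limma). All 4 untreated mutant arrays lay below all 4 untreated wild-type arrays for Lck, 199 to 218 against 223 to 419, as 4.10% of all features did. No other tested probe had such groups, though the dimmer Zap70 probe described above did, with the larger difference. No alternative brought a genotype difference of a tested probe past the threshold. The lowest adjusted p among these was 0.227, that of Lck in untreated mice with arrays weighted by quality, and the 0.142 of the dimmer Zap70 probe was lower. In challenged mice the differences ran from -0.08 for Cd3g to 0.07 for Lck, again with 0 of 9 past the threshold, beside 0.0167% of all features. Over both treatments it was 0 of 9, beside 0.0251%. The widest 95% interval in challenged mice, that of Cd3d, ran from -0.33 to 0.34, so differences within that range cannot be told from none with 4 arrays a group.

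Whether challenge acted differently in the mutant was asked with the interaction, the change in the mutant minus that in the wild type. It passed for 0 of 9 members, beside 0.00% of all features, and for none of their other probes. The largest was that of Lck, at 0.42 (SE 0.21, 95% interval -0.02 to 0.86, adjusted p = 0.448). Lck is thus not shown to respond differently, and neither is Cd3e, which lay on either side of the threshold in the 2 genotypes with an interaction of -0.02 (95% interval -0.36 to 0.32).

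The mean log2 value of the 9 genes on an array, set relative to the untreated wild type, shows how the arrays were ordered. It was -0.08, -0.10, 0.26 and -0.07 in untreated wild type and -0.01, -0.21, -0.16 and -0.06 in untreated mutant. In challenged wild type it was 0.35, 0.12, 0.36 and 0.41, and in challenged mutant 0.35, 0.27, 0.28 and 0.35. Untreated wild-type replicate 3 lay above challenged wild-type replicate 2, and no other untreated array reached a challenged one. The 3 arrays with high Acta1, at 0.27 to 0.36, lay within the range of the other 5 challenged arrays, 0.12 to 0.41. Without untreated wild-type replicate 3 the changes in the wild type were 0.77 for Cd3d, 0.84 for Cd27 and 0.88 for Lck, and the same 5 members passed there.

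**Figure D4:**
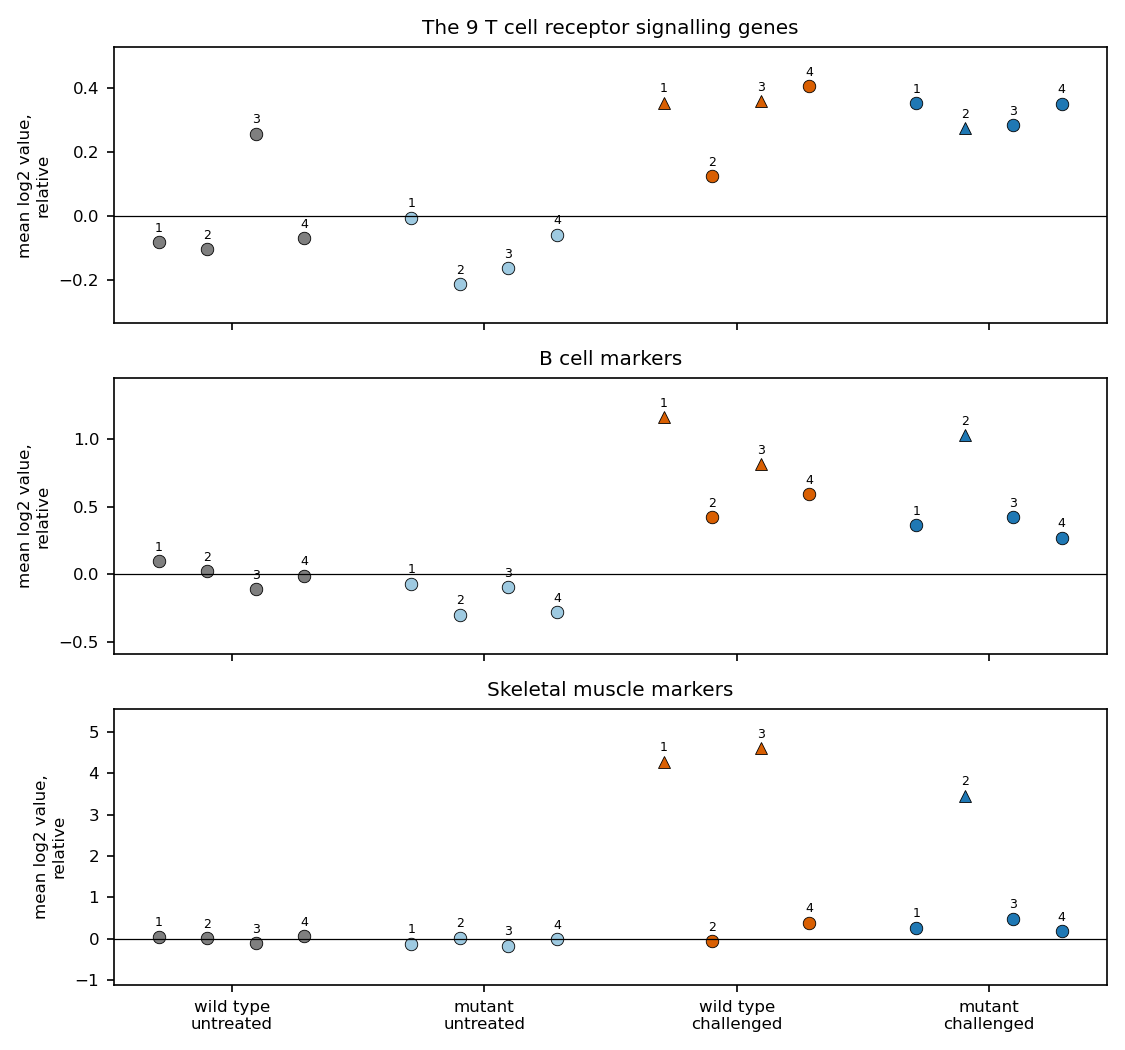
Mean log2 value on each array, relative to the mean of untreated wild type, of the 9 T cell receptor signalling genes (top), 8 B cell markers (middle) and 8 skeletal muscle markers (bottom); numbers are replicates and triangles mark the 3 arrays with high Acta1. The triangles lie among the other challenged arrays for the 9 genes, at 0.27 to 0.36, and above them for the B cell markers, at 0.81 to 1.16 against 0.27 to 0.59.

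How the members varied together is given here as correlations over the 16 arrays after the group means were removed, with no test since the arrays share one normalisation. The highest was that of Cd3d with Cd27 (r = 0.73), followed by Cd3e with Cd27 (0.65) and Cd3d with Cd3e (0.63). Lck had r = 0.60 with Cd3g and 0.57 with Cd27. These 5 genes were each highest of their untreated group in wild-type replicate 3. Lat had r = -0.25 with Cd3d and -0.33 with Cd27, although it rose with challenge as they did, but 0.62 with Zap70, and Cd28 had 0.63 with Cd3g. Of all other features, the 5 most like the mean profile of the 9 genes over the 16 arrays were Thy1 (r = 0.93), the T cell surface glycoprotein, Ctsw (0.92), a cathepsin of cytotoxic lymphocytes, Coro1b (0.91), Tec (0.90), a kinase of haematopoietic cells, and Rasal3 (0.90). All 5 rose over both genotypes, from 0.25 for Coro1b (adjusted p = 0.00603) to 0.82 for Rasal3 on the log2 scale. With the group means removed the nearest were Fli1 (r = 0.86), Nmral1 (0.85), Wdr20 (0.85), Ctsw (0.84) and Arl5a (0.83), of which Fli1 and Arl5a fell with challenge, by 0.30 and 0.39. Both sets of 5 are the highest picked from all features. Whether r this high exceeds what unrelated features would reach on 16 arrays was not tested.

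Other genes of the pathway were read from lists of textbook members. Unless a genotype is named, their changes are means of both genotypes, and passing there does not mean passing in each. No feature passed the interaction. Of 7 tested receptor chains, coreceptors and associated surface molecules, 5 rose over both genotypes, none fell, and the median log2 change was 0.36. Among all features 18.1% were called higher and 18.7% lower. Cd8b1, the beta chain of the CD8 coreceptor, rose by 0.80 (adjusted p = 0.00266), Thy1 by 0.48, Cd5 by 0.43 and Cd6 by 0.36, the last 2 being surface molecules that temper receptor signals, and Cd2 was the fifth. By limma Cd8b1 and Cd5 passed in the mutant but not in the wild type (0.55, adjusted p = 0.146, and 0.21, adjusted p = 0.364). Cd6 passed in neither genotype. Cd8b1 read 411, 233, 688 and 339 in untreated wild type, 399, 171, 242 and 348 in untreated mutant, 454, 567, 666 and 694 in challenged wild type and 718, 617, 632 and 511 in challenged mutant. The highest untreated array was again wild-type replicate 3. Cd8a lay below the background limit on all 16 arrays. Cd247, the zeta chain, was dim and had a log2 change of 0.14 (adjusted p = 0.177), and 6 of the 15 listed names, those of the antigen-binding chains, are not on the array by these symbols.

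Of 16 proximal kinases, phosphatases and adaptors, 5 rose and 2 fell over both genotypes, with a median log2 change of 0.07. Among all features 18.1% were called higher and 18.7% lower. Ptprc, the CD45 phosphatase of all leukocytes, rose by 0.76, Ptpn6, the inhibitory phosphatase SHP-1, by 0.72, Vav1, a guanine nucleotide exchange factor, by 0.70 and Lcp2, the adaptor SLP-76, by 0.67, with adjusted p-values of at most 0.000744. Ptprc read 93.9 to 156 in untreated wild type, 65.1 to 147 in untreated mutant, 189 to 256 in challenged wild type and 219 to 242 in challenged mutant. Challenged arrays did not overlap untreated ones, as for 2.17% of all features, higher after challenge. Fyn, a kinase related to Lck, fell by 0.34 (adjusted p = 0.00301), and Cblb, a ubiquitin ligase that restrains T cells, fell by 0.23 (adjusted p = 0.0404). Lck and Fyn therefore did not move together.

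Of 12 further costimulatory and inhibitory receptors, 2 rose, Tnfrsf9 by 0.70 (adjusted p = 0.00722) and Lag3 by 0.39 (adjusted p = 0.0206), and none fell. That share is near the 18.1% of all features called higher, so it is no result about the list. Tnfrsf9 encodes 4-1BB, and Lag3 an inhibitory receptor whose gene lies next to Cd4. By limma Tnfrsf9 passed in the wild type but not in the mutant (0.37, adjusted p = 0.320), and Lag3 passed in neither. Ctla4, the inhibitory receptor that neighbours Cd28 and competes for its ligands, had a change of 0.36 that did not pass (adjusted p = 0.131), and so did Btla at 0.27 and Icos at 0.07. Of 7 ligands on the partner cell, Pdcd1lg2 (0.68), Cd40 (0.66) and Cd274 (0.54) rose and the other 4 did not pass. The same 18.1% of all features stands beside this count. Cd40 passed in each genotype, Pdcd1lg2 in the wild type only and Cd274 in neither.

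Downstream of the adaptors, 4 of 18 transducers and transcription factors rose and 2 fell, with a median of 0.02. Beside the 18.1% and 18.7% of all features called higher and lower, these counts are no result about the list, and its genes are given as single values. Rasgrp1, which couples the receptor to Ras, rose by 0.78 (adjusted p = 0.000137), Orai1, the calcium channel, by 0.50, Rela, an NF-kappa-B subunit, by 0.36, and Ppp3ca, the calcineurin catalytic chain, by 0.30. Stim1, the calcium sensor that opens Orai1, fell by 0.42 (adjusted p = 0.00222) and Nfatc1, a calcineurin target, by 0.31. Of 9 genes that receptor signals induce, 4 rose and none fell, beside the same 18.1% and 18.7% of all features. The 4 were Egr2 by 0.86, Egr1 by 0.84, Irf4 by 0.47 and Cd44 by 0.44. In the wild type only Irf4 passed, whereas in the mutant Egr1, Egr2 and Cd44 passed and Irf4 did not. Summed intensities of the 11 listed genes on the array overlapped in the wild type, at 2930 to 6301 untreated and 5449 to 7159 challenged. In the mutant they did not, at 2497 to 3243 and 4219 to 6666. Whether T cells were the source of these changes was not tested. The early activation marker Cd69 had a change of 0.11 (adjusted p = 0.464) and Il2ra one of -0.01 (adjusted p = 0.951). Of 17 regulators and cytokines of T cell subsets, 7 rose and 2 fell, with a median of 0.25. Beside the 18.7% of all features called lower, the 2 falls are no result about the list, and 18.1% were called higher. Bcl11b, a transcription factor needed for T cell identity, rose by 1.17 (adjusted p = 5.74e-06). It read 97.1 to 209 in untreated wild type and 123 to 158 in untreated mutant, and 259 to 456 in challenged wild type and 357 to 389 in challenged mutant. Challenged arrays lay above untreated ones with no overlap, as for 2.17% of all features. Cxcr5, a chemokine receptor, rose by 0.80, Ikzf1 by 0.38 and Foxp3, the factor of regulatory T cells, by 0.29, whereas Il7r fell by 0.34 and Bcl6 by 0.28.

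**Figure D5:**
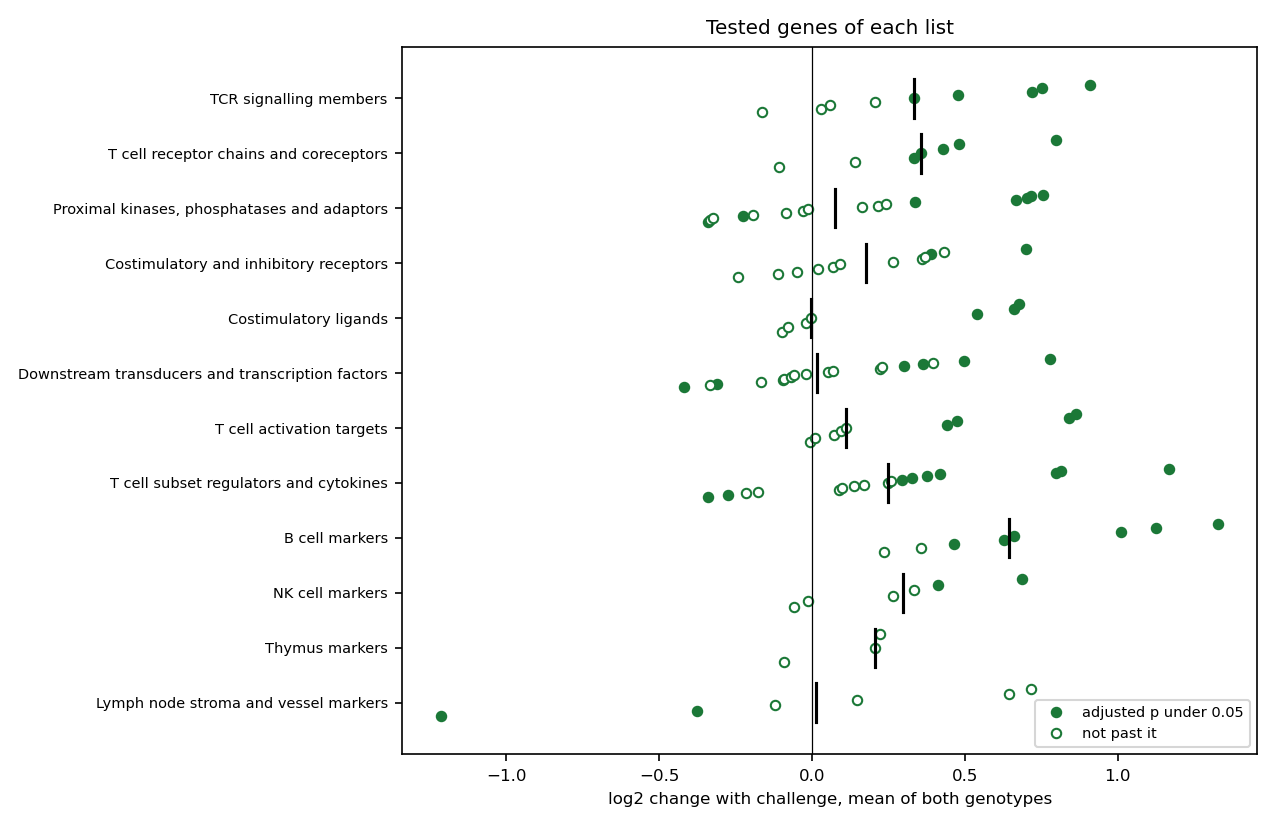
Log2 change with challenge over both genotypes (horizontal axis) of each tested gene, by list; filled circles passed an adjusted p of 0.05, and vertical bars are list medians. The 9 genes have a median of 0.33, and B cell markers one of 0.64, while ligands and downstream transducers have medians near 0.

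Markers of other lymphocytes and cells moved with the same comparison. Of 8 tested B cell markers 6 rose and none fell, led by Cd79b (1.33), Cd79a (1.12) and Blk (1.01). Over both genotypes, 18.1% of all features were called higher and 18.7% lower. The summed intensity of the 10 B cell markers on the array was 750 to 961 in untreated wild type, 581 to 802 in untreated mutant, 1319 to 2719 in challenged wild type and 1110 to 2310 in challenged mutant. Cd27, Blk, Ptprc, Ptpn6, Cd40 and Cxcr5 are also known from B cells, and the part of B cells in their changes was not tested. Of the 6 tested NK cell markers, Nkg7 (0.68) and Prf1 (0.41) rose, both of which cytotoxic T cells share. The summed intensity of 10 NK markers was 2773 to 3399 and 2498 to 2714 in untreated wild type and mutant and 3005 to 4340 and 3560 to 4314 after challenge. In the mutant 3 of the 6 passed, Klre1 among them at 0.60 (adjusted p = 0.0171), where 12.1% of all features were called higher. In the wild type 0 did, where 8.19% were. The difference between the genotypes passed for 0 of 6. Of the receptors, Klrd1 and Klre1 were above background on all 16 arrays, Klrk1 on 4, Klrb1c on 2 and Ncr1 on none, and Gzma and Gzmb were below it on all. The part of NK cells in the members' changes was not tested.

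Thymus expresses the same genes, and its defining markers were at or near background, with Rag2 and Ptcra below the limit on all arrays, Dntt at no more than 21.5 and Rag1 at no more than 38.2. The sums of 7 thymus markers were 284 to 573 and 348 to 414 in untreated wild type and mutant and 275 to 391 and 341 to 489 after challenge, and 0 of 3 tested ones passed over both genotypes. Of 6 tested lymph node stroma and vessel markers none rose, while Ccl21a, a chemokine of lymph vessels and T cell zones, fell by 1.21 and Ccl19 by 0.38. Among all features 18.1% were called higher and 18.7% lower. Their 7 summed intensities were 2520 to 3855 and 2825 to 3897 in untreated wild type and mutant, and 1735 to 3855 and 1493 to 3104 after challenge. Glycam1, a mucin of lymph node venules, read 377, 101 and 559 on the 3 Acta1 arrays and at most 25.6 on the other 13, so those 3 arrays differ in more than muscle, and B cell markers were highest on them. The members called over both genotypes were the same 5 without these arrays, at 0.81 for Cd3d, 0.36 for Cd3e, 0.78 for Cd27, 0.47 for Lat and 0.84 for Lck, joined by Cd28 as lower.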

How the data were processed

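Lung RNA of 16 mice was hybridised to single-colour Illumina bead arrays. The submitters' processing notes name GenomeStudio 2011.1 without its role. The authors deposited linear intensities. From the values, these were background subtracted, since 23.5% to 23.8% of each array lies below 0, and quantile normalised, since all arrays share an upper quartile of 221 and a maximum of 48649. Precision is limited by the number of arrays and, for dim probes, by nearness to background. A second table of 16 signal and 16 detection p columns matched no label, and only its symbol column was used.

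limma 3.58.1 in R 4.3.3 fitted normexp with an offset of 16 to the deposited intensities, and log2 values were tested with lmFit and eBayes, two-sided, in 1 model of all 16 arrays and 4 groups (12 residual and 4.75 prior degrees of freedom). A probe was kept when above 16.8, the point 95% of the noise lies under (SD 10.2, from values below 0), on at least 4 arrays, which left 15869 of 25697 probes, and the brightest per gene was tested. Benjamini-Hochberg adjustment ran over 11962 features. Single genes were also tested by exact permutation over arrays, within genotype for both genotypes together. The 9 genes and 19 lists (233 genes) were chosen with earlier results of these data known. Up to 4 genes of smallest p per list were named by rule, and Cd2, Cd247, Cd8a, Fyn, Cblb, Ctla4, Btla, Icos, Ppp3ca, Nfatc1, Cd69, Il2ra, Foxp3, Il7r, Bcl6 and Cox4i2 after their values were seen. Some listed genes are not reported here. The fit was tested on simulated data. Each array is a separate mouse per the labels. The 30 alternatives changed the background model, probe choice, filter, variance model or arrays.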

Additional observations from a re-analysis of the deposited data

How the results depend on the processing

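Over 30 alternatives, 3 of them chosen after seeing the data (no shift of the background mean, each probe on its own, and leaving out the Acta1 arrays with untreated wild-type replicate 3), the number of members called with challenge was 3 to 5 in the wild type, 4 to 5 in the mutant and 5 to 6 over both genotypes, and 0 for each genotype comparison and the interaction. No member that was called changed sign, and 1816 of 1856 single values kept their side of the threshold. Some values that were not called changed sign, such as that of Cd4 in the wild type, at -0.11 to 0.13. In the wild type the count was 3 when only the 8 arrays of the comparison were fitted (Cd3d and Cd3e lost), and 3 to 5 as each array was left out in turn, the 3 without untreated wild-type replicate 2. Cd3e was the least firm call, past the threshold in 11 of 30 alternatives in the wild type and 13 of 30 in the mutant. The replicate numbers were not taken to pair the samples. Of 24 same-numbered pairs, 3 had correlated deviations over 0.1 (range -0.50 to 0.26). Pairs with different numbers were not compared, so this cannot exclude pairing. With the replicate number as a block 5 members passed in the wild type, 5 in the mutant and 5 over both, and 0 in the genotype comparisons and the interaction. Calls over all features were less stable. The challenged genotypes differed in 2 features, but in 86 without the Acta1 arrays and 135 without these and untreated wild-type replicate 3, and the interaction went from 0 to 34 and 123. Genotype calls in untreated mice went from 0 to 36 without untreated wild-type replicate 3, 43 without it and the Acta1 arrays, and 130 with array weights. Over both treatments they went from 3 to as many as 49. None of these was a member. Fits on the arrays of a comparison alone were not run for comparisons that use all arrays, and Cd4 has no value where all 16 arrays had to be above background. Cd4, dim probes of Zap70 and Cd28 and Cd247 are limited by signal near background.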

Other observations

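Of 6 tested platelet and megakaryocyte markers, 4 rose over both genotypes by limma and none fell, beside 18.1% of all features called higher. In the mutant 4 of 6 rose, with a median log2 change of 0.48, where 12.1% of all features were called higher. In the wild type 1 of 6 rose, with a median of 0.15, where 8.19% were. The difference between the genotypes passed for 0 of the 6. Pf4, the platelet factor released from alpha granules, rose by 0.50 (adjusted p = 0.00118), and Gp9, a chain of the von Willebrand factor receptor, by 0.43. Itga2b, the platelet fibrinogen receptor chain, rose by 0.40 and Treml1 by 0.27. The sum of the 6 was 846 to 1701 in untreated wild type, 769 to 1136 in untreated mutant, 1224 to 1565 in challenged wild type and 1271 to 1606 in challenged mutant, so the wild-type groups overlapped and the mutant groups did not. Among macrophage and monocyte markers Adgre1, the F4/80 antigen, rose by 0.51 (adjusted p = 0.0214) and Lyz2, lysozyme, fell by 0.53 (adjusted p = 0.000904). The other 5 of 7 were not past the threshold, beside 18.1% of all features called higher and 18.7% lower. The 8 mast cell and basophil markers on the array summed to 29.1 to 80.2 in untreated wild type and 32.9 to 48.9 in untreated mutant. After challenge the sum was 65.8 to 154 in the wild type and 28.6 to 64.2 in the mutant. Like the other sums, these count values below 0 as 0 and include markers that were not tested. They are sums of dim values and were not tested, so no difference between the genotypes is drawn from them. Over both genotypes 0 of 3 tested mast cell and basophil markers passed with challenge.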
